A study of Mus musculus with 9 samples.

Results

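A set of 10 genes of calcium storage, release and re-uptake in the sarcoplasmic reticulum were followed through 9 mouse hearts: Ryr2, Casq2, Trdn, Jph2, Hrc, Atp2a2, Pln, Sln, Tmem38a and Tmem38b. They were taken by symbol from a table of 23457 genes, and 9 of the 10 members had enough reads to enter the fit over 12640 genes. The hearts came from adult C57BL/6J mice, 5 wild type (WT) and 4 labelled as germline Parkin knockouts (KO), a deletion that every cell of the animal carries. RNA was taken from ventricular apices, although the tissue label says whole heart, and the study around these hearts was mostly on flies. Sex and exact age are not in the labels used here, and p-values measure the spread between hearts. The level of the targeted gene is not reported here, so each direction rests on the labels. The genes were selected on known role and on their KO against WT differences in these hearts. Their differences are therefore given as a description and are not tested.

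The sarcoplasmic reticulum is the calcium store of the heart muscle cell. With each beat the ryanodine receptor opens and releases calcium that triggers contraction, and the SERCA pump then returns it to the lumen, where acidic proteins hold it. Phospholamban brakes the pump until it is phosphorylated. TRIC channels of the same membrane conduct potassium and are thought to balance the charge that calcium carries out.

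Depth and composition differed between the hearts. The count table assigned 4415183 to 20827699 reads to genes per heart, with the lowest totals in WT hearts 2 and 3. Mitochondrially encoded transcripts took 32.6% to 58.2% of reads in WT hearts and 10% to 15.4% in KO hearts. Each heart's deviation from the mean also followed transcript GC content, with slopes of -0.42 to -0.20 log2 units per 10 percentage points in WT and 0.16 to 0.69 in KO. For this reason most fold changes below are given from the edgeR fit and from a second edgeR fit with GC and length trends removed heart by heart. The second fit held the 12510 genes with a known transcript GC content and length, and library sizes were taken over these alone. Its CPM are therefore on a larger scale (Atp2a2 in WT heart 1: 11809 CPM, against 7539 in the first fit). They can be compared between hearts but not with CPM of the first fit. Markers of ventricular muscle, summed over 7 genes, ran from 51400 to 56577 CPM in WT and from 66913 to 74994 in KO. Of the 7, 3 were called higher and 0 lower, with log2 fold changes from -0.45 (Hey2) to 0.63 (Tnni3). Myh6 was the largest part of the sum, at 26925 to 30063 CPM in WT and 37636 to 45044 in KO. The part of these differences in the results was not tested. In bulk RNA, a difference in the number of muscle cells and a difference in RNA per cell cannot be told apart.

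The results turn on phospholamban and the pair of TRIC genes, so their coding sequences are shown, from GENCODE on GRCm38. The whole coding sequence of Pln lies in 1 exon, at chr10:53343864-53344022 on the plus strand, and is 159 bases long with a GC content of 44.7%. Capitals mark the start and stop codons.
Pln: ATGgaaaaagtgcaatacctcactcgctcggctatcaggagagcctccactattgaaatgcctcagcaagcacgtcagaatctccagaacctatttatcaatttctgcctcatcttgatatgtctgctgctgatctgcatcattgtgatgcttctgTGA
Tmem38a and Tmem38b, paralogs on chromosomes 8 and 4, each have 6 coding exons, of which 4 have equal length in both genes. Over those 548 bases 313 (57.1%) were identical. The fourth coding exon, the most alike of these with 63.6% identity, is at chr8:72581185-72581272 in Tmem38a and chr4:53850474-53850561 in Tmem38b, both on the plus strand. Capitals mark bases that both genes share.
Tmem38a: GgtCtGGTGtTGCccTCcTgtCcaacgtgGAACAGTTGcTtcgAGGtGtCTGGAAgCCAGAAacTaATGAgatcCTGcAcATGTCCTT
Tmem38b: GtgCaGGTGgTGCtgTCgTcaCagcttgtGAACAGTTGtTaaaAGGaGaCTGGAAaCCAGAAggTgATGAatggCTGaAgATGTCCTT
The longest exact run common to the longest coding transcripts of the pair was 12 bases. The coding bases differ in composition, with 55.6% GC in Tmem38a and 49.7% in Tmem38b.

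Per length, the pump and its brake were the most abundant of these transcripts in wild-type hearts. In FPKM (fragments per kilobase of transcript, scaled to library size, from the authors' table) Atp2a2 stood at 1384 ± 439 (SD, n = 5) and Pln at 892 ± 147, with ranges that overlapped. Hrc followed at 621 ± 61.7 and Casq2 at 265 ± 60.9, and neither range touched its neighbours. Tmem38a (119 ± 45.2), Ryr2 (102 ± 26.5) and Jph2 (92.8 ± 26.8) overlapped one another, and the range of Jph2 also overlapped that of Trdn (57.9 ± 10.9). Tmem38b lay far lower at 6.02 ± 3.09, and Sln stood last at 0.308 ± 0.481. In KO hearts the order differed in 3 places. Hrc (829 ± 79.1, n = 4) stood above Pln (498 ± 92.7), Jph2 (212 ± 23.6) above Ryr2 (129 ± 34.3), and Tmem38b (70.0 ± 14.4) above Trdn (28.4 ± 3.93), with no overlap in FPKM in any of these 3 pairs. Per kilobase of the median transcript, Tmem38b and Trdn overlapped in KO hearts. The place of Pln depends on its length: in CPM per kilobase of the median transcript it led the wild-type order at 1903 against 1621 for Atp2a2, and with the longest transcript it stood second, at 1014 against 1530. CPM here are counts per unit of library size, with libraries scaled by TMM factors.

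Tmem38b, which encodes the TRIC-B channel found in most tissues, differed most. Its CPM were 27.57, 17.34, 11.85, 19.74 and 16.95 in WT hearts 1 to 5 and 100.1, 161.0, 176.6 and 180.6 in KO hearts 1 to 4. Every KO heart was above every WT heart, and KO heart 1 was the lowest of its group. The log2 fold change, KO over WT, was 3.0 ± 0.22 (SE), a 7.99-fold higher level. It was larger with the trends removed, at 3.72 ± 0.26, with 14.4 to 37.4 CPM in WT and 176 to 423 in KO. Among 12051 tested genes whose mean reached 1 CPM, its fold change ranked 5 from the top, and with the trends removed 2 among 11935. Tmem38b lies in the lowest of 4 equal bins of genes by GC content (33.0% to 46.3%), where 3.64% of genes were called higher and 53.3% lower. Its exons share 119 bases with n-R5s185, an annotated ribosomal RNA copy that has no row in the count table.

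Tmem38a encodes TRIC-A, the form most abundant in striated muscle. It stood at 317.5, 229.6, 220.9, 308.0 and 258.3 CPM in WT hearts 1 to 5 and at 416.7, 434.3, 467.6 and 417.3 in KO hearts 1 to 4. All KO hearts were above all WT hearts, by a smaller step than for Tmem38b, with a log2 fold change of 0.70 ± 0.13. Removing the trends took that to 0.26 ± 0.11, and the groups overlapped (414 to 557 CPM in WT, 520 to 632 in KO). Tmem38a is in the highest of the 4 GC bins, where the median log2 fold change was 0.59.

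The ratio of the TRIC transcripts within a heart does not depend on scaling between hearts. Tmem38b per kilobase was 0.0456, 0.0397, 0.0282, 0.0337 and 0.0345 of Tmem38a in WT hearts 1 to 5 and 0.126, 0.195, 0.198 and 0.227 in KO hearts 1 to 4. The highest WT ratio was well below the lowest KO ratio, and the means were 0.0363 ± 0.00660 (SD, n = 5) and 0.187 ± 0.0429 (SD, n = 4). The geometric mean was 5.09-fold higher in KO hearts, and 11.4-fold higher with the trends removed. Tmem38a remained the more abundant TRIC transcript in each of the 9 hearts. The FPKM table gave the same ratios up to a constant, since within each heart the FPKM ratio of this pair over its read ratio varied by 0.00031% between hearts.

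**Figure D1:**
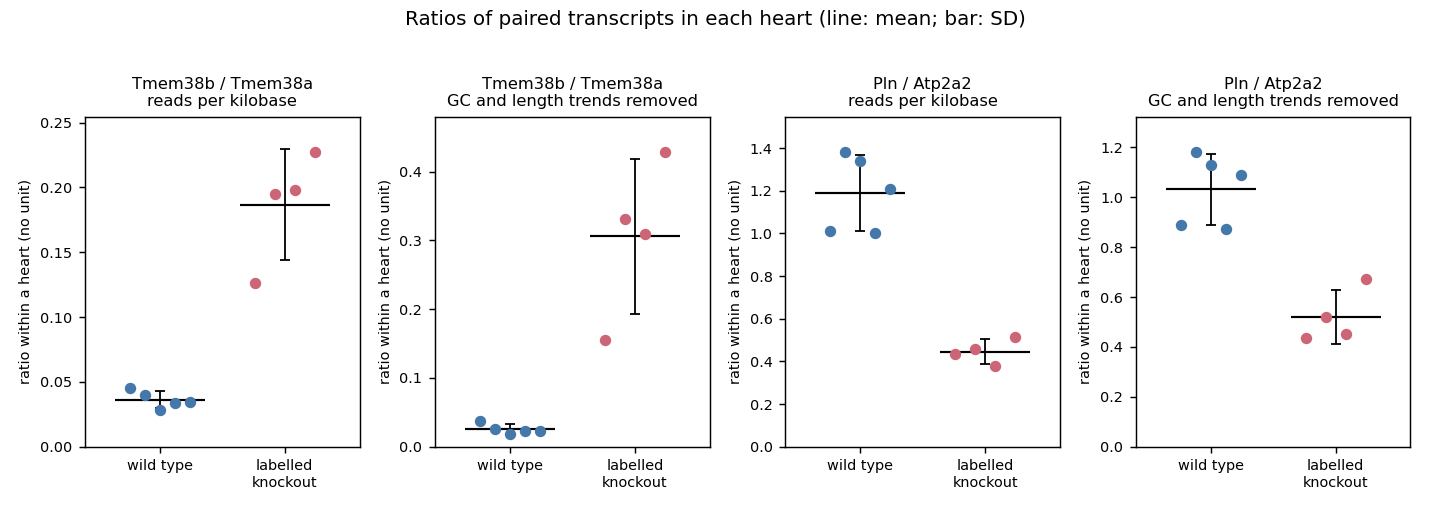
Ratio of Tmem38b to Tmem38a and of Pln to Atp2a2 within each heart (vertical axes, no unit), from reads per kilobase and again with GC and length trends removed; points are hearts, lines are means and bars are SD. WT hearts lie between 0.0282 and 0.0456 and KO hearts between 0.126 and 0.227 for Tmem38b to Tmem38a, and between 1.0 and 1.38 and between 0.377 and 0.515 for Pln to Atp2a2.

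Pln, encoding phospholamban, was lower in KO hearts. WT hearts 1 to 5 had 2227, 2566, 2414, 2253 and 2368 CPM and KO hearts 1 to 4 had 1063, 808.2, 803.2 and 848.3. The groups were far apart and each was even, with a coefficient of variation of 5.78% in WT and 14.0% in KO. The log2 fold change was -1.43 ± 0.13, a 2.69-fold lower level, and -0.94 ± 0.10 with the trends removed (2958 to 3507 CPM against 1530 to 1904). Exons of Pln share 1644 bases with Gm47644 and 141 with Cep85l, both on the other strand, and these libraries cannot separate the strands. Gm47644 has no row in the count table, so its part in the reads of Pln was not tested. Cep85l itself was assigned 26 to 119 reads per heart, at most 0.554% of the reads of Pln.

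Atp2a2, encoding the cardiac SERCA pump that phospholamban inhibits, was level between the groups. Its CPM were 7539, 6333, 6132, 7656 and 6667 in WT hearts 1 to 5 and 8308, 6035, 7264 and 5612 in KO hearts 1 to 4. The KO hearts held both the highest and the lowest value, and the log2 fold change was -0.01 ± 0.15, or 0.06 ± 0.11 with the trends removed. On the log2(FPKM + 1) scale the difference was 0.57, a table in which the median of all genes was itself shifted by 0.44.

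Relative to its pump, phospholamban was lower in KO hearts. Pln per kilobase was 1.01, 1.38, 1.34, 1.0 and 1.21 times Atp2a2 in WT hearts 1 to 5 and 0.436, 0.456, 0.377 and 0.515 times in KO hearts 1 to 4. The means were 1.19 ± 0.179 and 0.446 ± 0.0571, without overlap. The log2 difference of the ratio was -1.41, and -1.0 with the trends removed, which is 2.0-fold lower. In FPKM the ratio was lower throughout, 0.565 to 0.779 in WT and 0.212 to 0.290 in KO, close to the ratios per kilobase of the longest transcript (0.566 to 0.779 and 0.213 to 0.291), and its log2 difference was again -1.41.

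Sln, encoding sarcolipin, a small SERCA inhibitor of atria and skeletal muscle, was nearly absent. It had 3 reads in WT heart 1, 4 in WT heart 5 and 0 in the other hearts, where a count of 0 allows 0.143 to 1.04 CPM (3 reads, counting error only). No fold change is given. Among atrial markers, Bmp10 had 0 or 1 read and Myl7 0 to 19 reads per heart. The 7 atrial markers together reached 46.0 to 80.9 CPM in WT and 36.1 to 51.3 in KO. Of that, Kcna5, which is also expressed outside the atria, gave 28.5 to 58.0 and 17.2 to 20.1 CPM. The 10 skeletal muscle markers summed to 973 to 1594 CPM in WT and 2276 to 3338 in KO, most of it Ckm and Acta1, which the heart also expresses. Of the 6 tested, 3 were called higher (Ckm, Acta1 and Myh4) and 0 lower. Myh4 stood at 0.211 to 0.694 CPM in WT and 0.859 to 2.33 in KO, Casq1 had 77 to 680 reads per heart, and Tnnt3, Mylpf and Myh1 had at most 14. The part of skeletal muscle RNA in the members' values was not tested.

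**Figure D2:**
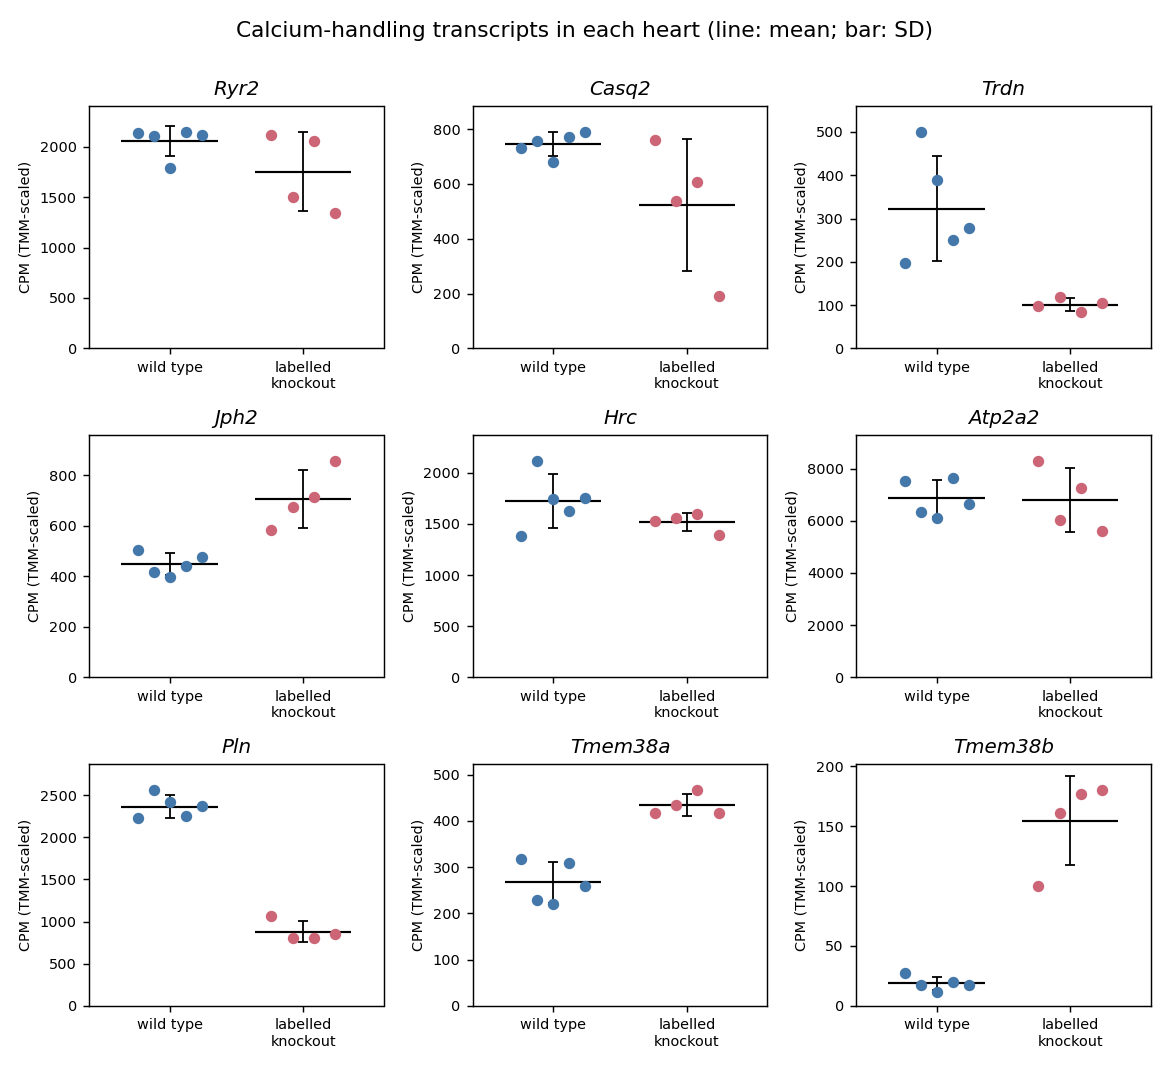
CPM (counts scaled by TMM library size, vertical axes from 0) of the 9 measured genes in each WT and labelled KO heart, with means (lines) and SD (bars). Pln and Trdn are lower and Jph2, Tmem38a and Tmem38b higher in all 4 KO hearts, and Casq2 in KO heart 4 stands at 191.3 CPM.

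At the release site the picture was uneven. Ryr2, the ryanodine receptor of the heart, had 2134, 2107, 1796, 2147 and 2119 CPM in WT hearts 1 to 5 and 2119, 1505, 2060 and 1342 in KO hearts 1 to 4. KO hearts 1 and 3 were at the wild-type level and KO hearts 2 and 4 below it, and the log2 fold change was -0.23 ± 0.15 (-0.04 ± 0.10 with the trends removed). Casq2, the calsequestrin that buffers calcium in the lumen, had 730.3, 756.2, 679.7, 772.8 and 788.8 CPM in WT and 758.9, 536.2, 608.6 and 191.3 in KO. The other labelled knockouts were near or somewhat below wild type, and KO heart 4 was far lower, at 392 CPM even with the trends removed, against 977 to 1230 in the other KO hearts. The log2 fold change of Casq2 was -0.51 ± 0.26, and it moved to -0.23 without KO heart 4. It passed the threshold of the fit only without KO heart 1, at -0.74. Casq2 to Ryr2 per kilobase was steady in wild type, at 2.44 ± 0.0938, and was 2.41, 2.40, 1.99 and 0.961 in KO hearts 1 to 4.

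Trdn, which encodes triadin, the anchor of calsequestrin to the ryanodine receptor, was lower in KO hearts. Its CPM were 197.4, 499.5, 389.2, 251.2 and 277.1 in WT hearts 1 to 5 and 97.42, 118.8, 84.84 and 103.6 in KO hearts 1 to 4. Wild-type hearts 2 and 3, the shallow libraries, were highest, and no KO heart reached a WT heart. The log2 fold change was -1.67 ± 0.23 (3.18-fold lower), and -0.82 ± 0.21 with the trends removed, where the groups overlapped at 263 to 596 and 177 to 276 CPM. Trdn has the lowest GC content of the members, at 39.13%.

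Jph2, encoding junctophilin 2, which ties the reticulum to the T-tubule, was higher in KO hearts. It stood at 503.5, 418.3, 398.3, 439.4 and 476.8 CPM in WT hearts 1 to 5 and at 582.3, 673.5, 714.6 and 857.3 in KO hearts 1 to 4. The groups did not overlap and the log2 fold change was 0.66 ± 0.13. The difference with the trends removed was -0.11 ± 0.10, with 809 to 1056 CPM in WT and 794 to 897 in KO. Jph2 has the highest GC content of the members, at 61.98%. Hrc, the histidine-rich calcium-binding protein of the lumen, overlapped between groups at 1726 ± 267 CPM in WT and 1520 ± 86.0 in KO, with a log2 fold change of -0.18 ± 0.14. It was at -0.58 ± 0.13 with the trends removed, and the groups no longer overlapped (2282 to 3887 and 1816 to 2211 CPM). In FPKM, Hrc was instead higher in every KO heart (715 to 893 against 552 to 712, log2 difference 0.42), close to the shift of 0.44 in the median of all genes in that table.

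**Figure D3:**
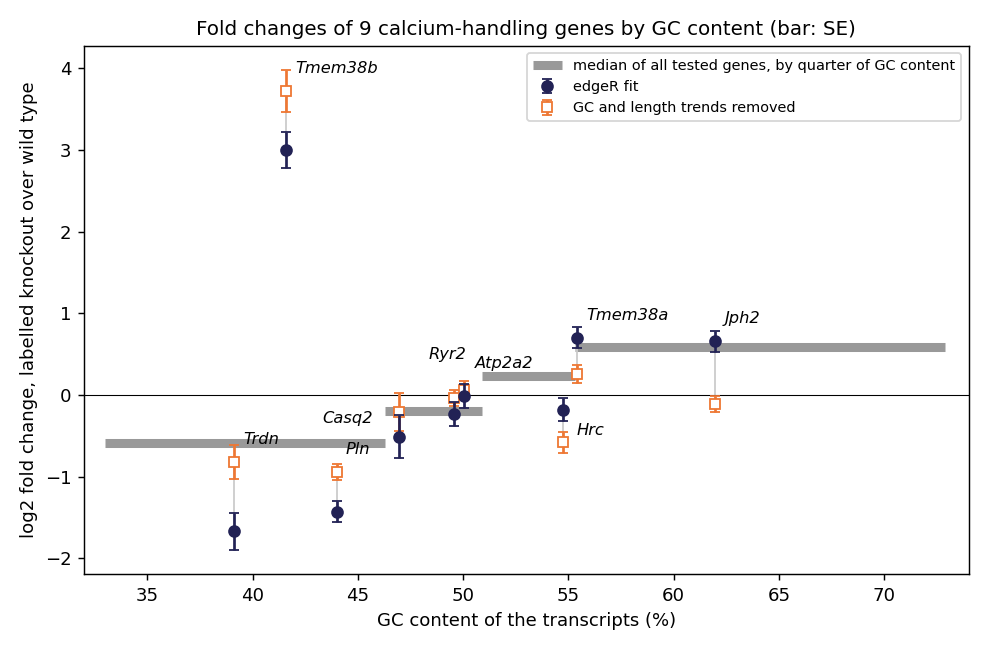
Log2 fold change, KO over WT (vertical axis), of 9 genes against the GC content of their transcripts in percent (horizontal axis), from edgeR (filled) and with GC and length trends removed (open), with SE bars; grey lines are medians of all tested genes in 4 bins of GC content. Tmem38b moves from 3.0 to 3.72 once the trends are removed, Jph2 from 0.66 to -0.11 and Hrc from -0.18 to -0.58.

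In number, 5 of the 9 measured members were called by edgeR, 3 higher (Jph2, Tmem38a and Tmem38b) and 2 lower (Pln and Trdn), where 51.4% of all 12640 genes were called. The background was 26.2% higher and 25.2% lower. The groups did not overlap for the same 5 members, as for 41.6% of all genes (22.3% higher and 19.3% lower). In FPKM they did not overlap for 6, these and Hrc, as for 45.6% of genes, and limma called the same 5, where it called 53.3%. With the trends removed, Tmem38b was called higher and Pln, Trdn and Hrc lower, against 38.2% of 12510 genes (18.6% higher and 19.6% lower). These counts are a description, since this contrast chose the members. Their median log2 fold change was -0.18, or -0.11 with the trends removed, beside -0.01 and 0.00 over all genes. The members together took 2.27% to 2.49% of reads from nuclear genes in WT hearts and 1.55% to 2.24% in KO hearts. Of all reads, with the mitochondrially encoded ones included, they took 0.982% to 1.61% in WT and 1.31% to 2.01% in KO.

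With earlier results of these data known, other genes of the calcium cycle were taken from a list of 87 by known role, in 7 groups. Of these, 80 were tested, and by edgeR's quasi-likelihood test with Benjamini-Hochberg adjustment 18 were higher (22.5%) and 32 lower (40.0%), with a median log2 fold change of -0.18. With the trends removed 8 were higher (10%) and 19 lower (23.8%), where the background was 18.6% and 19.6%, and 19 kept their call and direction from the first fit. The groups by role are read against the shares over all genes, 26.2% higher and 25.2% lower. The receptor, store and buffer genes lay near both, with 31.2% higher and 31.2% lower. The partners of the release channel had 23.1% lower, near the share over all genes, but 7.69% higher, which is below it. On the FPKM table, where 47.2% of all genes were called higher and 6.09% lower, 33 of the list were higher and 3 lower.

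Among SERCA paralogs and regulators of phospholamban, 6 of 13 fell (46.2%, against 25.2% of all genes) and 2 rose (15.4%, against 26.2%). None rose with the trends removed, where 5 fell (38.5%, against 19.6%). Hspb6, a small heat shock protein that limits dephosphorylation of phospholamban, stood at 2803 ± 508 CPM in WT and fell to 914 ± 90.6 in KO (log2 fold change -1.62 ± 0.16, adjusted p = 6.37e-06; -2.08 with the trends removed). Camk2d, the main cardiac form of the calmodulin-dependent kinase that phosphorylates phospholamban, fell from 102 ± 8.68 to 50.2 ± 11.7 CPM (-1.03 ± 0.15, adjusted p = 7.45e-05; -0.60 with the trends removed). Camk2a, another form of that kinase, fell by 1.52 on the log2 scale, with 115 to 297 CPM in WT and 67.2 to 69.7 in KO. The pump's paralogs were scarce beside Atp2a2. Atp2a1 stood at 1.52 ± 0.426 and 0.999 ± 0.154 CPM and did not pass (adjusted p = 0.2296), but was called lower with the trends removed (-0.84, adjusted p = 0.0399). Atp2a3 rose from 10.3 ± 1.90 to 18.0 ± 1.2 CPM, a call lost with the trends removed (adjusted p = 0.1965).

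Among partners of the release channel and the triad, 1 of 13 rose and 3 fell. S100a1, a calcium sensor that acts on the ryanodine receptor and on SERCA, fell from 1143 ± 151 to 450 ± 54.4 CPM (-1.35 ± 0.14, adjusted p = 7.98e-06; -1.75 with the trends removed). Jph1 fell (-0.54 ± 0.14), a call lost once the trends were removed (adjusted p = 0.4531). Speg, a kinase of the junctional membrane, was called higher at 0.47 and, with the trends removed, lower at -0.39. The skeletal receptor Ryr1 had too few reads to be tested, and Ryr3 did not pass (-1.01 ± 0.47, adjusted p = 0.0815).

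At the cell surface, export genes fell in 4 of 5 cases (80.0%, against 25.2% of all genes), and in 2 with the trends removed (40.0%, against 19.6%). Slc8a1, the sodium-calcium exchanger, fell from 537 ± 124 to 294 ± 85.0 CPM (-0.87 ± 0.20, adjusted p = 0.0022; -0.61 with the trends removed), although the lowest WT heart (386 CPM) was below the highest KO heart (396 CPM). The calcium pump gene Atp2b2 fell at a low level, from 2.44 ± 1.53 to 0.815 ± 0.246 CPM (-1.71 ± 0.41, and -1.94 with the trends removed). The groups overlapped, at 0.592 to 4.66 CPM in WT and 0.602 to 1.15 in KO. Its relative Atp2b1 was at -0.63 and at 0.04 with the trends removed. Channel and T-tubule genes were split, with 5 of 11 higher (45.5%, against 26.2% of all genes) and 3 lower (27.3%, against 25.2%). Of these Cacna1s (0.60 ± 0.14) and Cacnb2 (-0.53 ± 0.13) lost their calls with the trends removed, and Cacna2d2, an auxiliary subunit gene, held at -0.96 and -1.35. In that second fit 0 of the 11 were higher (against 18.6% of all genes) and 1 was lower (9.09%, against 19.6%).

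Genes of mitochondrial calcium uptake and release fell in 7 of 12 cases (58.3%, against 25.2% of all genes) and rose in 3 (25.0%, against 26.2%). When the trends were removed 5 fell (41.7%, against 19.6%) and 1 rose (8.33%, against 18.6%). Vdac2, an outer membrane channel, fell by 0.77 ± 0.19 on the log2 scale, and Mcur1, a regulator of the uniporter, by 0.73 ± 0.16, both called again with the trends removed. Micu2, a gatekeeper of the uniporter, fell by 0.56 and lost its call (adjusted p = 0.1307). Receptors of inositol trisphosphate, store-operated entry and luminal buffers had 5 of 16 higher and 5 lower. Rcn3, a calcium-binding protein of the lumen, rose from 10.6 ± 2.1 to 27.2 ± 6.65 CPM (1.33 ± 0.18), and Saraf, a brake on store-operated entry, from 87.9 ± 14.9 to 147 ± 5.72 CPM (0.73 ± 0.13), both also with the trends removed. Itpr3 rose by 0.79 but not with the trends removed (adjusted p = 0.1169). Calcineurin and NFAT genes had 2 of 10 higher (20.0%) and 4 lower (40.0%). Among the lower was Nfatc3 (-0.76 ± 0.14, and -0.36 with the trends removed). Rcan2 (-0.54) and Ppp3ca (-0.48) fell and lost their calls with the trends removed. Ppp3cb was called higher in both fits, at 0.38 ± 0.13 and, with the trends removed, at 1.13. In that second fit 2 of the 10 genes were higher and 1 was lower, against 18.6% and 19.6% of all genes.

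**Figure D4:**
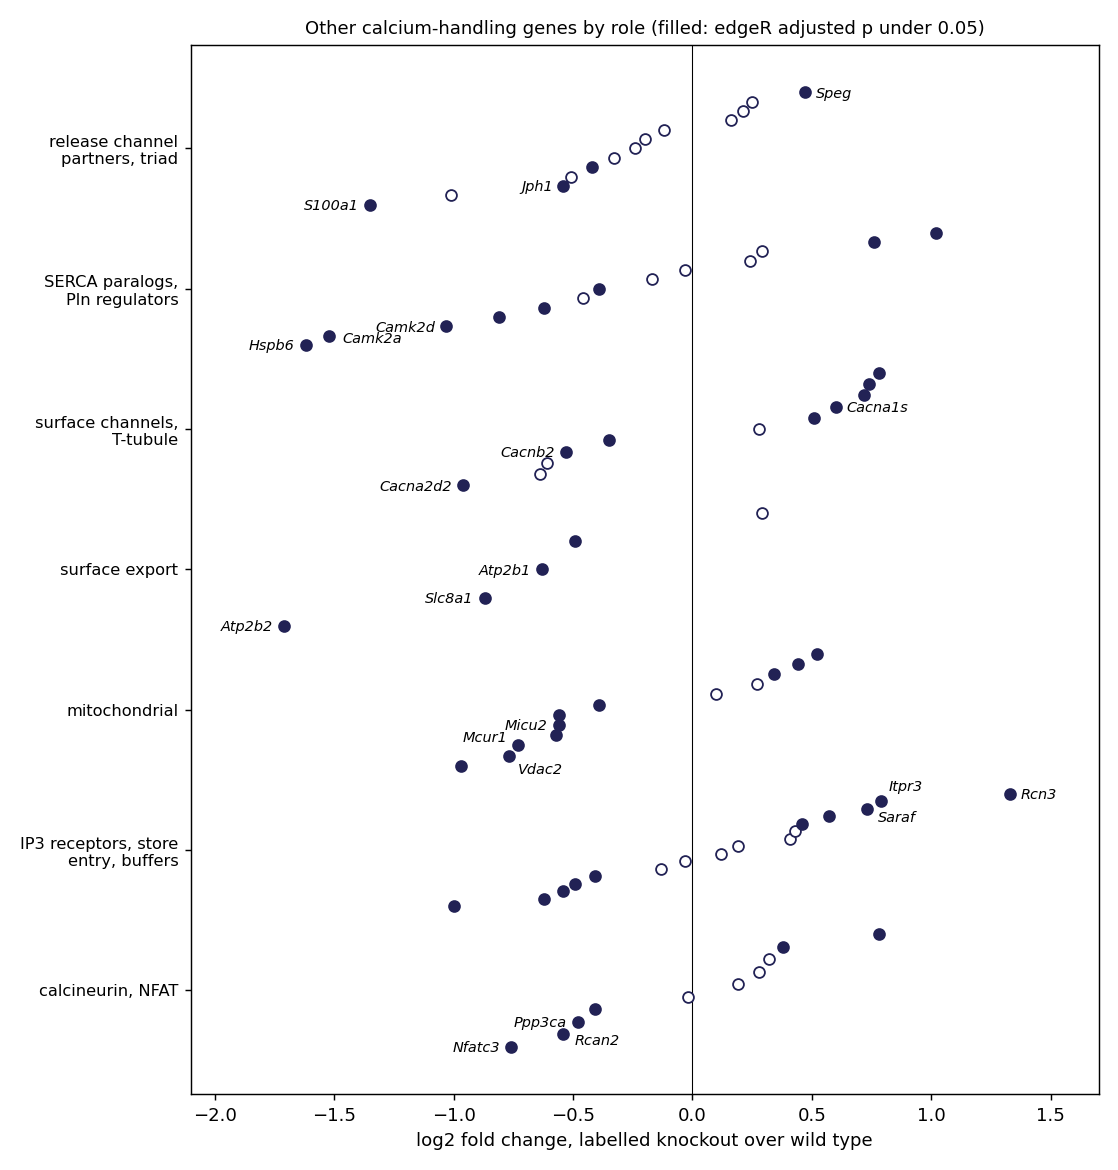
Log2 fold change, KO over WT (horizontal axis), of 80 other calcium-handling genes in 7 groups by role (vertical axis); filled points have an edgeR adjusted p under 0.05, and up to 3 called genes per group are labelled. Export genes lie mostly to the left, with 4 of 5 lower, and channel genes lie on both sides, with 5 of 11 higher and 3 lower. With the trends removed, which is not drawn, 2 export genes were lower, and 0 channel genes were higher and 1 lower.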

How the data were processed

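Per the labels' protocols, poly(A) RNA gave single-end libraries without strand information. The submitters' processing notes name build mm10 and Cufflinks 2.1, HTSeq, edgeR, DESeq, Bowtie2, TopHat and TopHat2 2.0.10, without roles; the sources used here do not give the annotation or the strand setting. The authors deposited read counts per gene and, in a second table, FPKM for the same 9 hearts. Members and lists were chosen with earlier results of these data known.

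Counts were fitted with edgeR 4.0.16 (R 4.3.3): TMM, its filter by group (10 reads, 15 in total), quasi-likelihood F tests over all genes, Benjamini-Hochberg threshold 0.05. SE come from the F statistic. FPKM were tested with limma 3.58.1 on log2(FPKM + 1), mean at least 0.5, which understates changes of low genes. To remove trends, the log2 deviation (prior count 2) of every heart was smoothed by lowess (span 0.3) on transcript GC, then length (medians over GENCODE vM21 coding transcripts), and entered as an offset, which also takes out any biology that tracks GC or length. Scripts were tested on simulated data without GC or length trends, which cannot show how well such trends are removed.

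Of the 10 members all were found by symbol; of 87 other calcium genes 84 were found, some through older RefSeq symbols (Micu2, Mcur1 and Saraf among them). From each role group the text names up to 3 called genes with the smallest p and a mean of at least 1 CPM. The other SERCA and ryanodine receptor paralogs (Atp2a1, Atp2a3, Ryr1, Ryr3) and Ppp3cb are named besides, as values. Another 9 marker lists served as checks. Summed CPM of red cell, smooth muscle, fibroblast, endothelial, macrophage, atrial and conduction genes overlapped between groups, with 0, 1, 3, 1, 2, 0 and 0 genes called higher and 0, 1, 2, 2, 2, 1 and 1 lower. Those of skeletal muscle and ventricular genes did not, with 3 called higher and 0 lower in each. DESeq2 1.42.0 was an alternative. Hearts of a group differed by at least 5.20 times sampling noise (chi-square per degree of freedom).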

Additional observations from a re-analysis of the deposited data

Results flagged for a closer look

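Within the group of 5 or 4 hearts, 2 of 30 sets of values held a heart that stood apart by Dixon's ratio of the gap to the range; chance gives about 1 in 20. Ryr2 in WT heart 3, a shallow library, stood at 1796 CPM, below 2107 to 2147 in the other WT hearts. The ratio of Hrc to Casq2 per kilobase was 12.1 in KO heart 4 and 3.34 to 4.80 in the other KO hearts. In KO heart 4 Casq2 was 191.3 CPM and Hrc 1396 CPM.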

How the results depend on the processing

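Jph2, Tmem38a and Tmem38b stayed called higher and Pln and Trdn lower under the other scalings, filters and tools, without each heart and in the FPKM fits. Casq2 was also called lower without KO heart 1, and Hrc higher in the FPKM fit without a filter. These calls remain a description and no test of the members, since this contrast chose them. Over all genes, the fits without single hearts called 2841 to 3399 higher and 2704 to 3353 lower. With GC and length trends removed 1 member was called higher, Jph2 turned to -0.11, Jph2 to Ryr2 to -0.06 and Hrc to Casq2 to -0.24 (log2 KO over WT). The cause was not tested. There Tmem38b to Tmem38a was 3.52 and Pln to Atp2a2 -1.0; leaving out single hearts gave 2.24 to 2.53 and -1.48 to -1.33. Over all genes the FPKM fits called 5961 higher and 769 lower (5834 and 754 with a pseudocount of 0.1, 6195 and 792 without a filter). For the other calcium genes they called 33, 31 and 35 higher and 3 lower each time, and removing the trends gave 8 and 19. With the replicate number as a block 11 were higher. The labels do not say that the numbers pair the hearts. Deviations of same-numbered hearts correlated at -0.26 to 0.04, and 2 of 8 hearts correlated best with their own number. So few correlations cannot exclude a pairing. Sln did not pass the filter on low counts; in the edgeR fit without a filter it was called lower, on 3 and 4 reads in WT hearts 1 and 5 and 0 in the others.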

Other observations

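The neighbours of Tmem38b on chromosome 4 were examined after its values were seen. Of 11 other genes in the count table within 1 megabase of it, 5 had enough reads to be tested and none was called higher by edgeR. Among them, Slc44a1 (log2 fold change -0.87 ± 0.20, edgeR adjusted p = 0.0024) was called lower, and Abca1 stood at -0.05 and Fsd1l at -0.28 without passing. With the trends removed Fsd1l was called higher at 0.63 (adjusted p = 0.0046). Tal2, the nearest of them, had 5 reads in all 9 hearts together.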
